A study of Mus musculus with 60 samples.

Results

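Interferon-stimulated genes are the genes that cells switch on after an interferon binds its receptor, and 33 of them were followed here in mouse liver, visceral fat and subcutaneous fat. They were taken by symbol from a fixed list, and all 33 were found among the 54232 gene IDs of the count table. By role they are 4 sensors of viral nucleic acid, 4 transcription factors, 12 antiviral effectors, 2 genes of the ISG15 system, 6 GTPases and 5 others. The study fed mice a Western diet with 42% fat or a control chow with 11% fat for 12 weeks. NaKtide, a peptide taken from the Na,K-ATPase that binds the kinase Src, came from a transgene induced by doxycycline at 300 mg/kg in the diet. Each of the 3 tissues therefore had 4 groups, namely Western diet with NaKtide, Western diet alone, control diet with NaKtide and control diet alone, with 5 libraries each and 60 in all. The series title speaks of NaKtide in adipocytes, but the labels give no promoter for the transgene, no strain, no sex and no age. They do not say whether mice without NaKtide carried the transgene or ate doxycycline, so NaKtide and doxycycline cannot be told apart. Nor do they say whether 1 mouse gave all 3 tissues, and p-values measure the spread between these samples.

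Type I interferon signals through Jak kinases to a complex that holds Stat2 and Irf9 and binds a DNA element called the interferon-stimulated response element (ISRE). Interferon gamma acts through another DNA element, the gamma-activated site (GAS), and drives Irf1 and the GTPases. In fat, interferon-stimulated genes are expressed by adipocytes as well as by macrophages and other immune cells, and in liver by hepatocytes as well as by resident macrophages.

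The libraries held 3.18 to 9.78 M counts, with a median of 6.41 M. Summed hepatocyte markers were at least 30509 CPM, the count relative to the library's TMM-scaled total, in every liver library and at most 4432 CPM in any fat library, and summed adipocyte markers were at least 1121 CPM in fat and at most 288 CPM in liver. Male tract and testis transcripts summed to over 1000 CPM in 6 visceral libraries, which are library 2 and library 5 of Western diet with NaKtide, library 1 of control diet with NaKtide and libraries 3, 4 and 5 of control diet. Mesothelial transcripts, which mark visceral fat, lay on the other depot's side of a limit of 10 CPM in 3 fat libraries. They summed to 3.6 CPM in visceral library 1 and 76.4 CPM in subcutaneous library 1 of Western diet with NaKtide. That subcutaneous library also had 228 CPM of male tract transcripts, and subcutaneous library 4 of its group had 143 CPM. The visceral library had 1.8 CPM of them, as low as some other visceral libraries, and 841 CPM of skeletal muscle transcripts, the most in visceral fat. Whether samples of the 2 depots were exchanged is not known. Subcutaneous library 2 of control diet with NaKtide had 16 CPM of mesothelial transcripts. Its group averaged 2.83 CPM of Krt19, beside 0.289 CPM of Msln, 0.322 CPM of Upk3b and 0 CPM of Wt1. The same library had 17.3 CPM of cholangiocyte and 8.99 CPM of mammary epithelium markers. Its 16 CPM alone therefore do not show mesothelium. Livers 2 and 4 of control diet carried 267 and 521 CPM of skeletal muscle transcripts. In RNA from whole tissue, fewer cells of a type and less RNA per cell cannot be told apart.

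Upstream sequences are shown for members whose visceral fat values are described below, to set the response element beside the expression data. Of the 33 members, 24 had at least 1 RefSeq promoter window (GRCm38.p6, 250 bases before to 50 bases after a transcript start), in 28 windows. The ISRE letters GAAANNGAAA, which are GAAA and GAAA parted by any 2 bases, were searched on both strands, overlapping matches included, and occurred in 15 of the 28 member windows (53.6%), against 1131 of 32851 windows of the same length genome-wide (3.44%). The GAS letters TTCNNNGAA, a palindrome, occurred in 7 member windows (25.0%), against 8.3% of all windows. The 250 bases before the start of 7 members follow, 5′ to 3′ on the gene's strand, with ISRE matches in capitals. Ifit1 (chr19:34640639-34640888, + strand), Oas1a (chr5:120907526-120907775, - strand), Oas3 (chr5:120777660-120777909, - strand), Gbp2 (chr3:142620413-142620662, + strand) and Oasl1 (chr5:114922990-114923239, + strand) were higher in visceral fat on Western diet. Stat2 (chr10:128270248-128270497, + strand) was lower with NaKtide on that diet, and Isg15 (chr4:156200819-156201068, - strand) was called in neither comparison.
Ifit1: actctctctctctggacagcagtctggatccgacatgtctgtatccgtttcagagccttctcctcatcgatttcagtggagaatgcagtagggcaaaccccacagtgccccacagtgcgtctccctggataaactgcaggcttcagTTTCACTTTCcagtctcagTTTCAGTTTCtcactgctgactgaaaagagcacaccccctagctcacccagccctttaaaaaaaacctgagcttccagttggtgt
Oas1a: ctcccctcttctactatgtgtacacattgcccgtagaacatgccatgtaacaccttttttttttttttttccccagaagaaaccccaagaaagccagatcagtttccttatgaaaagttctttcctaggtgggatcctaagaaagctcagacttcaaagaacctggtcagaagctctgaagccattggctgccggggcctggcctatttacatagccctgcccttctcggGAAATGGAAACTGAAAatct
Oas3: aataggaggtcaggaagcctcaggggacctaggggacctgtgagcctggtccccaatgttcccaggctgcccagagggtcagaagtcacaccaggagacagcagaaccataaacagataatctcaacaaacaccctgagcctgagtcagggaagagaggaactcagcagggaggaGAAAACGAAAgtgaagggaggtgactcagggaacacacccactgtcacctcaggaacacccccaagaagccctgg
Gbp2: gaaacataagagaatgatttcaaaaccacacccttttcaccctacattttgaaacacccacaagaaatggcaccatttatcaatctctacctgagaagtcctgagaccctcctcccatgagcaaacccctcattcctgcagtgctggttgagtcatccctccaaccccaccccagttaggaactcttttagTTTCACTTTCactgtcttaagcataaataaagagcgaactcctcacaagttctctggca
Oasl1: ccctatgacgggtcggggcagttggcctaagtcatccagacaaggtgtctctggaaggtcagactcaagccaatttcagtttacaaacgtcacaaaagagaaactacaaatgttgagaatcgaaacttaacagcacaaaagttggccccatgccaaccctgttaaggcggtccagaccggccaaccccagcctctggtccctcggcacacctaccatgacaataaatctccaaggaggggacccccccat
Stat2: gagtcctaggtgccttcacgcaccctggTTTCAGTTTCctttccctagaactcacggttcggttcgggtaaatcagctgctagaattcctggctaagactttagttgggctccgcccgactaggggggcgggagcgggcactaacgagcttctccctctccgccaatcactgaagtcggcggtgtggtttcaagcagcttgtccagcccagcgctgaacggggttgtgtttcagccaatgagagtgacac
Isg15: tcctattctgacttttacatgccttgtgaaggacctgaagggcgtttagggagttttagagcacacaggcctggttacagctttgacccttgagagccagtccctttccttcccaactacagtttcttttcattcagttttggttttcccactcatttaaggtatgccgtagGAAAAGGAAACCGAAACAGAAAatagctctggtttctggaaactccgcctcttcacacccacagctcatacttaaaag

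Counting the base before the start as -1, the matches began at -104 and -85 in Ifit1, at -20 and -14 in Oas1a, at -75 in Oas3, at -59 in Gbp2 and at -222 in Stat2. Isg15 held 3 overlapping matches from -78, and Oasl1 held none. Of the 12 members called higher in visceral fat on Western diet, 8 had a window and 6 of these held an ISRE, and of the 21 not called, 16 had a window and 9 of these held one. A match is a run of letters and does not show that a factor binds there, and an absent match speaks only of these letters in this window.

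Levels between genes and tissues were compared on the deposited FPKM, which divide by transcript length, as medians over the 20 libraries of a tissue and without a test. Bst2, a membrane protein that tethers budding virus, ranked first in all 3 tissues, with a median of 325 FPKM in liver, 50.7 FPKM in visceral fat and 60.3 FPKM in subcutaneous fat. Oas3, an oligoadenylate synthetase that activates RNase L, ranked last in all 3, at 0.159 FPKM in liver, 0.12 FPKM in visceral fat and 0.123 FPKM in subcutaneous fat. The GTPases Iigp1 and Gbp2 differed widely between tissues. Iigp1, which acts on the vacuoles of intracellular parasites, had 74.0 FPKM in liver, 4.31 FPKM in visceral fat and 6.34 FPKM in subcutaneous fat. Gbp2, a guanylate-binding protein, ran the other way with 1.34 FPKM in liver (0.186 to 2.69), 20.5 FPKM in visceral fat (0.863 to 42.4) and 22.2 FPKM in subcutaneous fat (7.79 to 32.9). The liver and subcutaneous ranges of Gbp2 did not overlap, while its visceral range was wide. Oasl1, which in mice limits translation of Irf7, had 8.63 FPKM in liver, 0.762 FPKM in visceral fat and 1.18 FPKM in subcutaneous fat. Ifit3, which partners Ifit1 in binding foreign RNA, was closer between tissues, at 14.9, 18.8 and 24.9 FPKM in liver, visceral fat and subcutaneous fat. The transcription factor Irf1 was at 10.8 FPKM in liver, 11.5 FPKM in visceral fat and 14.1 FPKM in subcutaneous fat.

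**Figure D1:**
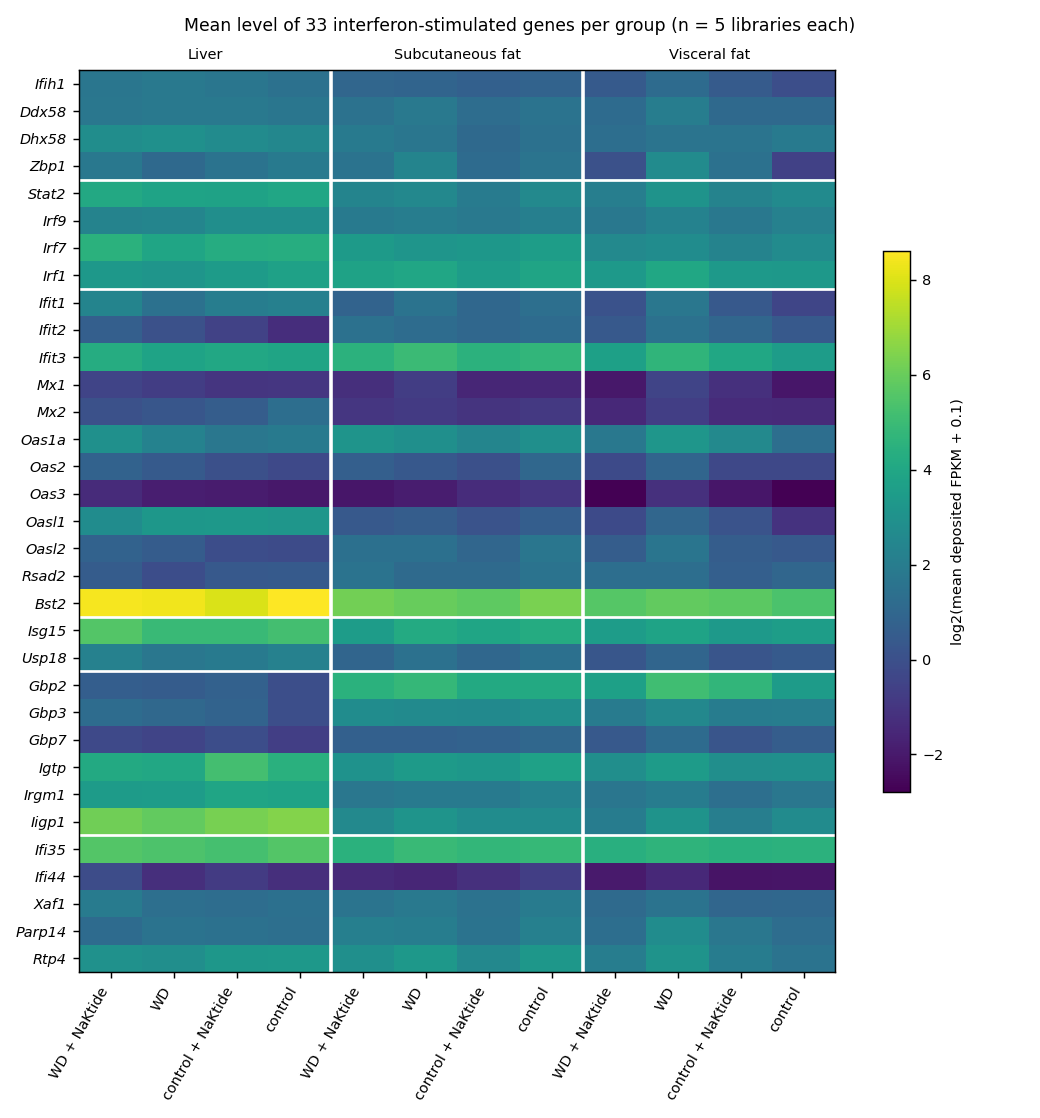
Mean level of each of the 33 members (rows, ordered by role) in the 12 groups of 5 libraries (columns), as log2 of the group's mean FPKM plus 0.1; white lines part the tissues and the roles. Bst2 has the highest mean in all 12 groups, and Iigp1 and Gbp2 run in opposite directions between liver and fat.

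In visceral fat without NaKtide, 12 of the 33 members were higher on Western diet than on control diet and none was lower (edgeR quasi-likelihood test, Benjamini-Hochberg adjusted p below 0.05 over 17235 genes), against 10.5% of all tested genes called higher. The 12 were 3 of the 4 sensors (Zbp1, Ddx58 and Ifih1), 6 of the 12 antiviral effectors (Ifit1, Oas1a, Oas3, Oasl1, Oasl2 and Mx1), the GTPase Gbp2, and Rtp4 and Parp14 among the others. None of the 4 transcription factors and neither gene of the ISG15 system was called. The log2 fold change was positive for 32 of 33 members, with a median of 0.92, beside -0.22 over all genes, and 15 members had an unadjusted p below 0.05, beside 41.6% of all genes.

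Zbp1 (chr2:173206612-173218923, - strand), a sensor of Z-form nucleic acid, had 22.9, 36.6, 23.2, 34.5 and 30.1 CPM in the Western-diet libraries, against 4.15, 3.69, 2.55, 1.36 and 1.21 CPM in the control-diet libraries. Every Western-diet library exceeded every control-diet library several times over (log2 fold change 3.5, SE 0.40, adjusted p = 9.75e-05). Ddx58, which encodes the viral RNA sensor RIG-I, had 34.6, 24.9, 44.9, 40.04 and 38.0 CPM on Western diet, against 24.4, 24.7, 16.3, 18.2 and 9.78 CPM on control diet (log2 fold change 0.97, SE 0.23, adjusted p = 0.00837). Its lowest Western-diet library, library 2, lay just above the highest control-diet library. Ifih1, a sensor of long double-stranded RNA, averaged 23.2 ± 5.13 CPM on Western diet and 9.21 ± 6.29 CPM on control diet (SD, n = 5 each), and its groups overlapped (log2 fold change 1.33, SE 0.45, adjusted p = 0.0394).

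Among the effectors, Ifit1 (chr19:34640871-34650009, + strand), which binds the ends of foreign RNA, had 11.7, 8.26, 9.89, 15.4 and 9.52 CPM in the Western-diet libraries, against 3.78, 3.10, 1.57, 1.75 and 1.07 CPM in the control-diet libraries. The groups were far apart (log2 fold change 2.27, SE 0.43, adjusted p = 0.00213). Oasl1 (chr5:114923240-114937915, + strand) had 5.43, 7.14, 7.80, 5.95 and 4.65 CPM on Western diet, against 2.08, 1.43, 0.784, 0.776 and 0.938 CPM on control diet. No libraries of the 2 diets overlapped (log2 fold change 2.35, SE 0.37, adjusted p = 0.000523). Its neighbour Oasl2 (chr5:114896936-114912234, + strand), a related oligoadenylate synthetase-like protein, had 18.6, 20.7, 30.2, 31.7 and 24.9 CPM on Western diet, against 13.8, 16, 7.64, 6.21 and 6.70 CPM on control diet. The gap was narrower, with libraries 1 and 2 of control diet close below the lowest Western-diet library (log2 fold change 1.32, SE 0.34, adjusted p = 0.0138). Oas1a, an oligoadenylate synthetase whose reads could be shared with its near copy Oas1g, averaged 22 ± 8.30 CPM on Western diet and 5.77 ± 2.61 CPM on control diet (SD, n = 5 each; log2 fold change 1.93, SE 0.42, adjusted p = 0.00483). The dynamin-like GTPase Mx1 averaged 3.09 ± 0.755 CPM on Western diet and 0.622 ± 0.371 CPM on control diet (log2 fold change 2.25, SE 0.50, adjusted p = 0.00563). Oas3 averaged 3.09 ± 0.525 CPM on Western diet and 0.409 ± 0.438 CPM on control diet (log2 fold change 2.94, SE 0.79, adjusted p = 0.0155), and it rested on 139.0 counts over the Western-diet group and 11.0 over the control-diet group.

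Gbp2 had 118, 79.0, 138, 118 and 109 CPM on Western diet, against 71.2, 60.9, 30.4, 13.4 and 2.55 CPM on control diet. Control-diet library 5, which also had the lowest adipocyte markers at 1121 CPM, was lowest by far (log2 fold change 1.66, SE 0.58, adjusted p = 0.0453). Rtp4, a chaperone of receptors that also acts against viruses, averaged 22.5 ± 5.61 CPM on Western diet and 7.81 ± 3.98 CPM on control diet (log2 fold change 1.53, SE 0.42, adjusted p = 0.0194), and Parp14, an ADP-ribosyltransferase, averaged 79.6 ± 17.6 CPM on Western diet and 28.0 ± 22.9 CPM on control diet (log2 fold change 1.51, SE 0.51, adjusted p = 0.0412). Rtp4 overlaps Masp1 on the opposite strand, and whether counting used the strand is not given in the sources used here.

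Several classical members were not called for the diet in visceral fat. Irf7, which drives type I interferon genes, had 28.7, 43.1, 27.7, 32.3 and 30.1 CPM on Western diet, against 34.4, 30.7, 42.5, 30.6 and 16.6 CPM on control diet, with groups that overlapped throughout (log2 fold change 0.06, SE 0.24, adjusted p = 0.851). Isg15, a ubiquitin-like protein attached to other proteins, had 8.81, 21.3, 11.9, 15.8 and 11.1 CPM on Western diet, against 9.44, 9.53, 15.9, 19.97 and 3.08 CPM on control diet (log2 fold change 0.25, SE 0.44, adjusted p = 0.67). Ifit3 had 50.9, 64.5, 52.1, 64.2 and 51.0 CPM on Western diet, against 36.4, 48.7, 21.0, 15.9 and 4.29 CPM on control diet. Its groups did not overlap, since control-diet libraries 1 and 2 stopped short of the lowest Western-diet library, yet its adjusted p was 0.0704 (log2 fold change 1.16, SE 0.46). Usp18, the protease that removes Isg15 and restrains the receptor, averaged 6.52 ± 1.87 CPM on Western diet and 4.53 ± 0.96 CPM on control diet (log2 fold change 0.52, SE 0.31, adjusted p = 0.208). Irf9 differed by 0.02 and Ifi35 by 0.08 on the log2 scale, with SE 0.20 and 0.32. Dhx58, a regulator of the RNA sensors, had 12.2, 14.4, 11.7, 12.6 and 10.8 CPM on Western diet, against 7.37, 7.62, 5.29, 4.07 and 48.5 CPM on control diet. Control-diet library 5 was far above all others and the other 4 lay under every Western-diet library; the log2 fold change, -0.25 with it (SE 0.53), was 1.04 without it. No other member had a negative value, and the highest among those not called was 1.35 for Oas2. Oas2 was called without control-diet library 1 (2.24), and Ifit3 by DESeq2 and without control-diet library 2 (1.59). In all, 11 members had every Western-diet library above every control-diet library, beside 8.02% of all tested genes. Without the 6 visceral libraries with male tract transcripts, 6 members were higher, 5 of them among the 12 (Zbp1, Ifit1, Mx1, Oasl1 and Gbp2) and Stat2 besides, and the median was 0.52 beside 0.07 over all genes; this fit was chosen after seeing the data. The count over all genes in that fit is given below with the other settings. Without control-diet library 3 alone, 7 members were called.

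**Figure D2:**
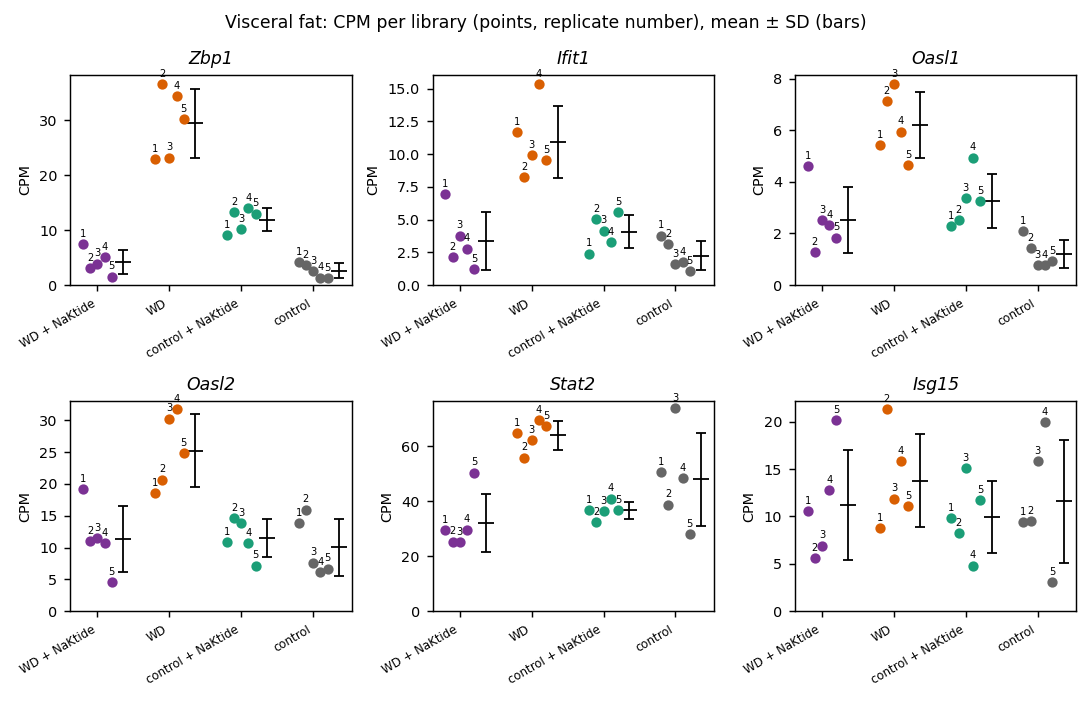
CPM of 6 members in each of the 20 visceral fat libraries, by group; points are libraries, bars the group mean ± SD (n = 5). For Zbp1 the Western-diet libraries without NaKtide lie between 22.9 and 36.6 CPM, above all other libraries, while for Isg15 the 4 groups overlap.

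NaKtide on Western diet was then set against Western diet alone. In visceral fat 9 of the 33 members were lower with NaKtide and none was higher, against 6.95% of all tested genes called lower and 6.23% called higher (edgeR quasi-likelihood test). With no filter on low counts, 2 of the 9 were called, Zbp1 and Stat2. The 9 of the main fit were the sensors Zbp1 and Ddx58, the transcription factor Stat2, and 6 effectors, Ifit1, Oas1a, Oas3, Oasl1, Oasl2 and Mx1. The median of all 33 was -0.87, beside 0.03 over all genes, and 32 of 33 log2 fold changes were negative. The Western-diet libraries are the same as those of the diet comparison above, so the 2 comparisons share them.

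Zbp1 had 7.45, 3.10, 3.90, 5.10 and 1.53 CPM with NaKtide, against the 22.9 to 36.6 CPM of Western diet alone (log2 fold change -2.79, SE 0.39, adjusted p = 0.000424). Stat2 (chr10:128270559-128292849, + strand), a transcription factor of type I interferon signalling, had 29.4, 25.4, 25.2, 29.7 and 50.4 CPM with NaKtide, against 64.8, 55.8, 62.1, 69.6 and 67.4 CPM without. NaKtide library 5, one of the libraries with male tract transcripts, was the highest of its group and still under all 5 libraries without NaKtide (log2 fold change -1.0, SE 0.22, adjusted p = 0.00804). Ifit1 had 6.94, 2.11, 3.77, 2.78 and 1.22 CPM with NaKtide, against 8.26 to 15.4 CPM without (log2 fold change -1.68, SE 0.42, adjusted p = 0.0152), and the groups did not overlap. Oasl1 had 4.63, 1.27, 2.52, 2.32 and 1.83 CPM with NaKtide, against 4.65 to 7.80 CPM without. Its highest NaKtide library, library 1, all but reached the lowest library without NaKtide (log2 fold change -1.29, SE 0.35, adjusted p = 0.0244). Oasl2 had 19.1, 11.0, 11.4, 10.7 and 4.59 CPM with NaKtide, against 18.6 to 31.7 CPM without. NaKtide library 1 overlapped the group without NaKtide (log2 fold change -1.14, SE 0.34, adjusted p = 0.0348). That library is the one with 3.6 CPM of mesothelial transcripts, and without it 11 members were lower, the 9 and also Usp18 (-1.07) and Rtp4 (-1.57). The fit without it called 1833 of 17896 genes in either direction.

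For the other called members the log2 fold change was -2.08 for Mx1 (SE 0.50, adjusted p = 0.0117), -0.87 for Ddx58 (SE 0.23, adjusted p = 0.0193), -2.62 for Oas3 (SE 0.76, adjusted p = 0.03) and -1.42 for Oas1a (SE 0.41, adjusted p = 0.0312). In 10 members every NaKtide library lay under every library without it, beside 7.58% of all tested genes. Again Irf7 (-0.15, SE 0.24), Isg15 (-0.30, SE 0.44) and Bst2 (-0.23, SE 0.34) were not called, and Rsad2, the antiviral enzyme viperin, differed by 0.00 (SE 0.63). Without the libraries with male tract transcripts 9 members were lower, 6 of them the same, with Irf9, Gbp2 and Parp14 in place of Oas1a, Oas3 and Oasl1. In that fit 3536 of 17595 genes were called in either direction. Leaving out a single library left 4 members called without library 3 of Western diet alone, 3 without its library 4, 4 without NaKtide library 2 and 5 without NaKtide library 4 or NaKtide library 5; Zbp1, Stat2 and Mx1 were called in all 10 such fits.

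On control diet, 2 members were higher with NaKtide than without it in visceral fat and none was lower, against 5.26% of all tested genes called higher and 1.9% called lower, a share near the background. Zbp1 had 9.09, 13.3, 10.2, 14 and 13.0 CPM with NaKtide, against 4.15, 3.69, 2.55, 1.36 and 1.21 CPM without, with no overlap (log2 fold change 2.19, SE 0.39, adjusted p = 0.00189). Oasl1 had 2.27, 2.51, 3.38, 4.94 and 3.25 CPM with NaKtide, against 2.08, 1.43, 0.784, 0.776 and 0.938 CPM without, again with no overlap (log2 fold change 1.43, SE 0.37, adjusted p = 0.0211). Zbp1 kept its call in all 10 fits that left out 1 library, while Oasl1 lost it in 3, without control-diet library 3, control-diet library 4 or NaKtide library 4, and also with no filter on low counts. The median over the 33 was -0.01, beside -0.23 over all genes. Without the libraries with male tract transcripts, Zbp1 was higher (1.69) and Irgm1 (-0.70) and Iigp1 (-1.42) were lower. In that fit 1878 of 17595 genes were called in either direction, a share near that of the members.

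With NaKtide in both groups, 1 member differed between the diets in visceral fat, against 3.49% of all tested genes called lower. Zbp1 averaged 4.22 ± 2.23 CPM on Western diet and 11.9 ± 2.16 CPM on control diet (SD, n = 5 each), lower on Western diet in every library (log2 fold change -1.48, SE 0.37, adjusted p = 0.0267). The call was lost in 6 of the 10 fits that left out 1 library: without control-diet NaKtide library 2, 4 or 5, or without Western-diet NaKtide library 2, 3 or 4. It was also lost with no filter on low counts.

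The interaction of diet and NaKtide, the diet difference with NaKtide minus that without it, was negative and called for 10 members and positive and called for none, against 13.4% of all tested genes called negative and 18.8% called positive. The 10 were Zbp1 (log2 fold change -4.98, SE 0.55, adjusted p = 9.53e-06), Oasl1 (log2 fold change -2.72, SE 0.51, adjusted p = 0.000923), Mx1 (log2 fold change -3.41, SE 0.71, adjusted p = 0.00191), Oas1a, Ifit1, Oas3, Gbp2, Oasl2, Ddx58 and Parp14. The last 7 had log2 interactions of -2.72, -2.54, -4.20, -2.67, -1.33, -0.86 and -1.92, with adjusted p of 0.00255, 0.00498, 0.00876, 0.0201, 0.0412, 0.047 and 0.0479 by edgeR's quasi-likelihood test. Zbp1 shows the pattern in its means, which were 4.22 ± 2.23 CPM on Western diet with NaKtide, 29.5 ± 6.28 CPM on Western diet, 11.9 ± 2.16 CPM on control diet with NaKtide and 2.59 ± 1.33 CPM on control diet. Such a crossing of the groups was not particular to the members. The adipocyte marker Lep averaged 868, 3319, 3602 and 973 CPM in the same order, while Lipe did not cross, at 1701, 1390, 1457 and 1110 CPM. Sums of other cell markers follow below. The median over the members was -0.63, beside 0.30 over all genes. Zbp1, Oasl1, Mx1, Oas1a, Ifit1, Oas3 and Gbp2 were called in all 20 fits that left out 1 library. Without the libraries with male tract transcripts, 7 members were negative, 6 of them among the 10 and Stat2 besides, and Rsad2 was positive (1.63). In that fit 4344 of 17595 genes were called in either direction, a share near that of the members.

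**Figure D3:**
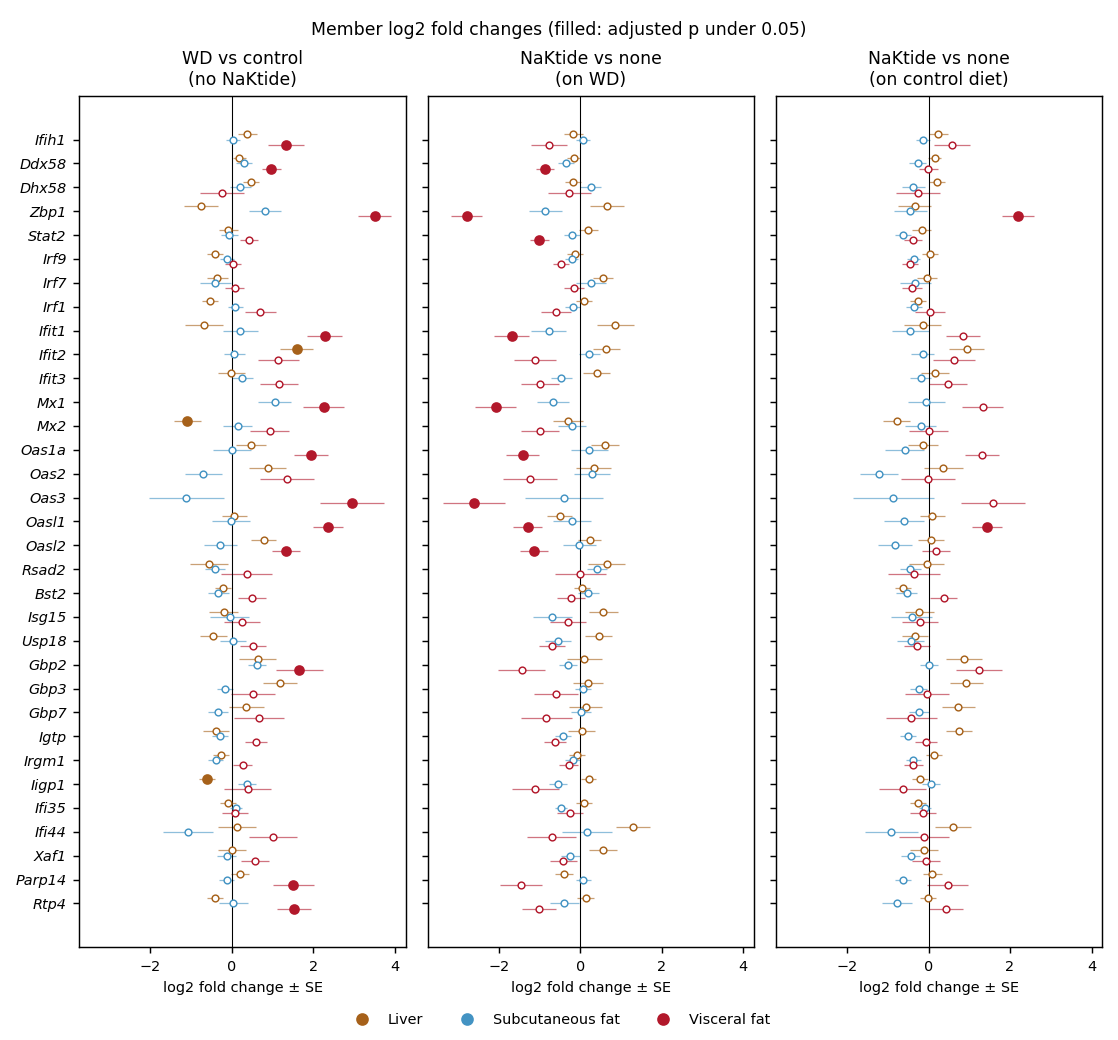
Log2 fold change ± SE of each member (rows) in 3 comparisons within each tissue (panels): Western diet against control diet, NaKtide on Western diet and NaKtide on control diet; filled points had adjusted p below 0.05 over all genes. In visceral fat the diet points lie right of 0 for 32 of 33 members and the points for NaKtide on Western diet left of 0 for 32 of 33, and 1 member in liver and none in subcutaneous fat was called higher on Western diet.

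Macrophage markers were read beside these results. The 10 markers (Adgre1, Cd68, Csf1r, Lyz2, Mrc1, Itgam, Cd14, Fcgr1, Mpeg1 and C1qa) summed to 363 to 1295 CPM in visceral fat on Western diet with NaKtide and 1595 to 3472 CPM on Western diet, and to 1714 to 2589 CPM on control diet with NaKtide and 162 to 664 CPM on control diet. None was at 0, and the mean of all 10 was lower with NaKtide on Western diet, higher on Western diet without NaKtide and higher with NaKtide on control diet. The 33 members summed to 431 to 729 CPM on Western diet with NaKtide and 907 to 1055 CPM on Western diet, and to 503 to 737 CPM on control diet with NaKtide and 249 to 836 CPM on control diet. The macrophage sums of Western diet and of control diet with NaKtide overlapped, while the member sums of these 2 groups did not. Every macrophage marker but Mpeg1 (199 against 202 CPM) had a higher mean on Western diet than on control diet with NaKtide. The means ranged from close, at 985.4 against 984.8 CPM for Lyz2, to 153 against 75.6 CPM for Mrc1. Hepatocyte markers summed to 1742 to 4221 CPM on Western diet with NaKtide, 84.9 to 573 CPM on Western diet, 96.7 to 651 CPM on control diet with NaKtide and 69.5 to 4432 CPM on control diet, where library 5 was the lowest of all 20. In each group most of the mean of this sum was Cyp2e1, at 2439, 255, 169 and 1625 CPM in the same order. B cell markers were highest on control diet with NaKtide, at 989 to 1635 CPM. The part of these cells in the members' differences was not tested.

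**Figure D4:**
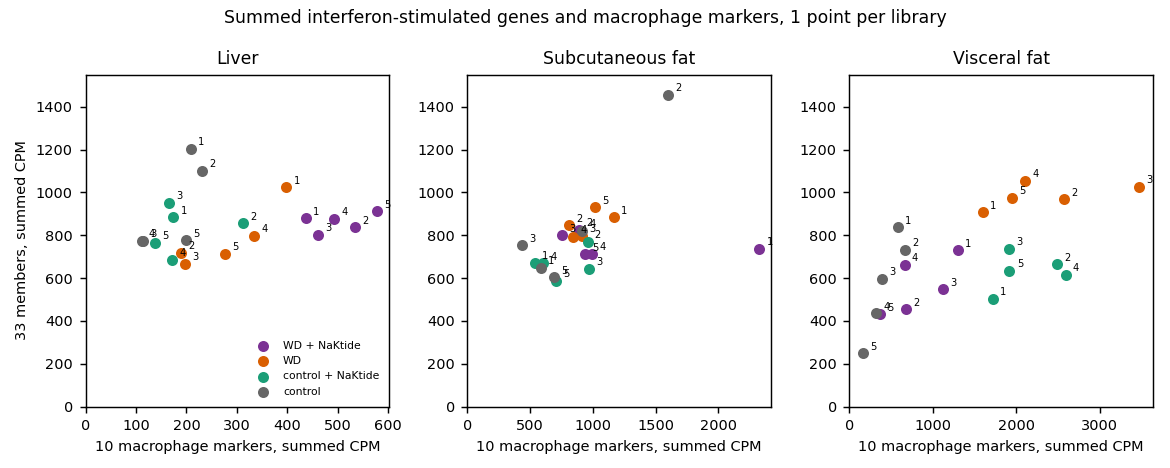
Summed CPM of the 33 members (vertical axis) against summed CPM of 10 macrophage markers (horizontal axis) in every library, a panel per tissue, coloured by group. In visceral fat the Western-diet libraries lie at 907 to 1055 CPM of members and the control-diet libraries with NaKtide at 503 to 737 CPM, at overlapping macrophage sums; subcutaneous control-diet library 2 stands apart at 1455 CPM.

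Other genes of the interferon pathway were read from lists that held 12 ligands, 10 receptors and kinases, 14 genes of sensing and induction, 10 of restraint, 63 other interferon-induced genes and 14 of class I antigen presentation. No ligand had enough counts to be tested in any tissue: the 12 genes had 47 counts over all 60 libraries, 44 of them from Ifng, the gene of interferon gamma. In visceral fat without NaKtide, 45 of the 108 tested genes were higher on Western diet and 1 was lower, against 10.5% and 14.3% of all genes. By class, 5 of 10 receptors and kinases, 8 of 14 genes of sensing and induction, 4 of 9 of restraint, 23 of 61 other induced genes and 5 of 14 of class I presentation were higher. Irf8, a transcription factor of macrophages and dendritic cells, averaged 68.9 ± 10.3 CPM on Western diet and 14.9 ± 4.12 CPM on control diet (log2 fold change 2.21, SE 0.24, adjusted p = 6.79e-05). Socs3, a brake on cytokine receptors, averaged 46.1 ± 13.1 CPM on Western diet and 3.93 ± 2.51 CPM on control diet (log2 fold change 3.55, SE 0.44, adjusted p = 0.000134), and the chemokine Cxcl10 averaged 18.0 ± 2.71 CPM on Western diet and 1.53 ± 0.955 CPM on control diet (log2 fold change 3.55, SE 0.47, adjusted p = 0.00018). The 1 lower gene was Isg20, an RNA exonuclease (log2 fold change -2.89, SE 0.76, adjusted p = 0.0152). With NaKtide on Western diet 26 of the 108 were lower and none was higher, against 6.95% and 6.23% of all genes, with Irf8 at -2.11, Socs3 at -2.96 and Cxcl10 at -3.06 (adjusted p = 0.000108, 0.000523 and 0.000678). With NaKtide on control diet 14 of the 108 were higher and none was lower, against 5.26% and 1.9% of all genes, led by Irf8, which averaged 92.5 ± 21.7 CPM with NaKtide and 14.9 ± 4.12 CPM without (log2 fold change 2.63, SE 0.24, adjusted p = 1.32e-05), by Irf5 (2.45, adjusted p = 0.000602), a relative that acts downstream of Toll-like receptors, and by the kinase gene Ikbke (1.80, adjusted p = 0.000992). With NaKtide in both groups 5 of the 108 were lower on Western diet and none was higher, a share near the 3.49% of all genes called lower, among them Irf8 (-2.53), Ikbke (-1.63) and Ifngr2 (-1.14), a chain of the interferon gamma receptor. On control diet with NaKtide Irf8 thus stood at 92.5 ± 21.7 CPM beside 68.9 ± 10.3 CPM on Western diet, while Stat2 stood at 36.7 ± 3.00 CPM beside 63.9 ± 5.33 CPM; this pair of groups was not tested.

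In subcutaneous fat no member was called in any of the 5 comparisons by edgeR's quasi-likelihood test. For Western against control diet without NaKtide 5.61% of all 15226 tested genes were called, and for the other 4 comparisons 0% were. Unadjusted p was below 0.05 for 3 members in the diet comparison without NaKtide, 2 in that with NaKtide, 4 for NaKtide on Western diet, 6 for NaKtide on control diet and 3 for the interaction, where 23.6%, 24.5%, 12.3%, 6.03% and 11.2% of all genes had one. DESeq2 called 1 member in each diet comparison and none in the other 3. Gbp2 had the smallest p for the diet, with 97.7, 67.1, 78.5, 74.7 and 91.0 CPM on Western diet, against 44.7, 54.8, 60.5, 64.6 and 43.7 CPM on control diet. The lowest Western-diet library lay above the highest control-diet library, and the adjusted p was 0.107 (log2 fold change 0.61, SE 0.22). Next came Mx1 (log2 fold change 1.05, SE 0.42, adjusted p = 0.134). For the diet with NaKtide in both groups the smallest p belonged to Dhx58 (0.83, adjusted p = 0.0967), and Parp14 (0.57, adjusted p = 0.104). For NaKtide on Western diet they were Ifi35 (-0.48, adjusted p = 0.195) and Iigp1 (-0.55, adjusted p = 0.311), for NaKtide on control diet Parp14 (-0.62) and Stat2 (-0.63), both with an adjusted p of 0.792, and for the interaction Parp14 (0.70, adjusted p = 0.339) and Rsad2 (0.85, adjusted p = 0.368). Of the 105 other pathway genes tested, 4 were higher on Western diet without NaKtide and none was lower, a share under the 5.61% of all genes, and Cxcl10 was among them (log2 fold change 1.89, SE 0.39, adjusted p = 0.013).

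One control-diet library stood apart in this tissue. Isg15 had 12.9, 18.5, 15.6, 16.2 and 16.6 CPM on Western diet, against 6.83, 50.3, 8.59, 10.2 and 8.41 CPM on control diet, where library 2 exceeded all others and the other 4 lay under every Western-diet library. Zbp1 had 21.7, 17.9, 22.2, 25.7 and 19.1 CPM on Western diet, against 6.98, 29.7, 6.03, 13.9 and 4.93 CPM on control diet, with library 2 again the highest of all. Irf7 had 43.9, 39.0, 35.2, 34.8 and 43.2 CPM on Western diet, against 27.2, 124, 34.7, 47.1 and 28.5 CPM on control diet. Control-diet library 2 of the NaKtide group was also high, at 87.9 CPM of Irf7 and 32.1 CPM of Isg15, beside at most 37.1 and 11.5 CPM in the rest of its group. This NaKtide library had the lowest TMM factor of the tissue, 0.448, and a low factor raises every CPM of a library. The part of this scaling in its high values was not tested. The 33 members summed to 1455 CPM in control-diet library 2 and to 604 to 822 CPM in the other 4, and macrophage markers to 1601 CPM and to 438 to 915 CPM. Skeletal muscle markers summed to 193084 CPM in control-diet NaKtide library 2, beside at most 46880 CPM in any other subcutaneous library. Without NaKtide they also parted the diets, at 6064 to 46880 CPM on control diet and 16.7 to 161 CPM on Western diet. The part of muscle in the subcutaneous diet comparison, with or without libraries 2, was not tested. Without library 2 of both control-diet groups, an alternative chosen after seeing the data, 7 members were higher on Western diet and none was lower, against 1907 of 15384 genes called. They were Zbp1 (1.41, adjusted p = 0.00703), Isg15 (0.92, adjusted p = 0.00446), Oas1a (0.89), Rtp4 (0.74), Gbp2 (0.63), Ifit3 (0.61) and Mx1 (1.36). Without control-diet library 2 alone 1 member was called.

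**Figure D5:**
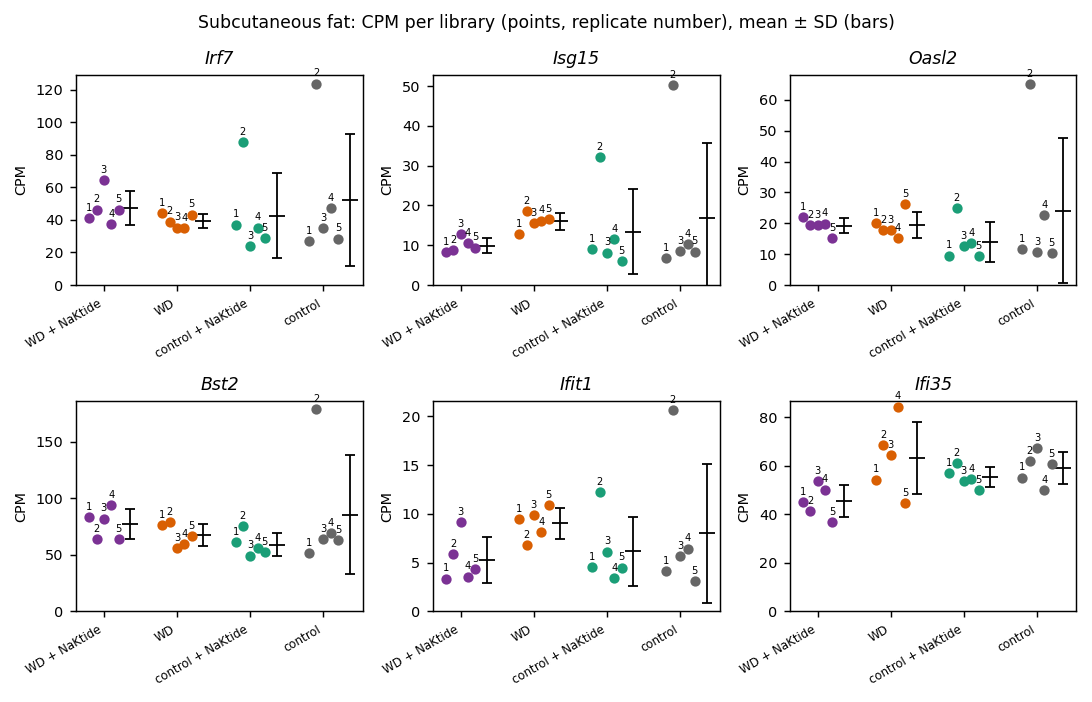
CPM of 6 members in each of the 20 subcutaneous fat libraries, by group; points are libraries, bars the group mean ± SD (n = 5). Control-diet library 2 is the highest point for Irf7 (124 CPM), Isg15 (50.3 CPM), Oasl2 (65.0 CPM) and Bst2 (179 CPM).

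Visceral fat was set against subcutaneous fat on control diet without NaKtide in 1 fit of the 40 fat libraries. Of the 33 members 16 were lower in visceral fat and none was higher, against 7.33% of all 17788 tested genes called lower and 19.9% called higher. Macrophage markers summed to 162 to 664 CPM in these visceral libraries and 438 to 1601 CPM in the subcutaneous ones. Skeletal muscle markers summed to 24.2 to 184 CPM and 6064 to 46880 CPM. The part of macrophages and muscle in this difference was not tested. The members' median was -0.89, beside 0.13 over all genes. Zbp1 had 3.96, 3.54, 2.33, 1.29 and 1.15 CPM in visceral fat, against 7.30, 30.6, 6.30, 14.7 and 5.10 CPM in subcutaneous fat (log2 fold change -2.36, SE 0.42, adjusted p = 0.00148). It alone among the members had every visceral library under every subcutaneous one, beside 3.35% of all tested genes. Oasl1 (-2.0), Ifit1 (-1.94), Rtp4 (-1.74) and Igtp (-0.86), a GTPase that overlaps Irgm2 on the same strand, followed, with adjusted p of 0.00458, 0.00572, 0.00546 and 0.00986. The others called were Oas1a, Oasl2, Xaf1, Usp18, Ifit3, Oas3, Bst2, Ifi44, Irgm1, Ifih1 and Irf7, from -3.16 for Oas3 to -0.59 for Irgm1. Male tract transcripts were above 1000 CPM in 3 of these 5 visceral libraries, and without such libraries no member was called and 2 genes were called in all. A fit of the 2 groups alone called 0 members, the fit without subcutaneous libraries 2 called 5 (Zbp1, Ifit1, Oasl1, Igtp and Rtp4), and the fit without visceral control-diet library 5 called 4.

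In liver 31 members were tested, all but Mx1 and Oas3, whose counts were too low. Western diet without NaKtide was called higher than control diet for 1 member and lower for 2, against 4.75% and 3.69% of all 12991 tested genes, a share near the background. Ifit2, an RNA-binding effector, had 4.25, 1.48, 1.44, 3.89 and 1.55 CPM on Western diet, against 1.19, 1.05, 0.632, 0.65 and 0.586 CPM on control diet. It rested on 73 counts over the Western-diet group and 19 over the control-diet group. The groups did not overlap, with libraries 1 and 4 of Western diet highest (log2 fold change 1.59, SE 0.41, adjusted p = 0.0176). Iigp1 had 179, 105, 104, 132 and 109 CPM on Western diet, against 205, 236, 159, 224 and 137 CPM on control diet, with groups that overlapped (log2 fold change -0.61, SE 0.19, adjusted p = 0.0469). Mx2, annotated as a polymorphic pseudogene, averaged 2.70 ± 1.30 CPM on Western diet and 5.87 ± 1.77 CPM on control diet (log2 fold change -1.09, SE 0.34, adjusted p = 0.0461). Without the 2 muscle-containing control-diet livers, or in a fit of the 2 groups alone, 0 members were called, and leaving out control-diet library 1, 2 or 4 or Western-diet library 3 or 5 left 1.

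With NaKtide in both groups, 3 liver members were higher on Western diet and 2 were lower, against 12.9% and 11.7% of all tested genes, so the members' share was no larger than the background. Ifit2 had 5.76, 2.73, 2.15, 4.16 and 4.78 CPM on Western diet, against 1.41, 1.22, 1.58, 1.91 and 1.86 CPM on control diet, with no overlap (log2 fold change 1.29, SE 0.35, adjusted p = 0.0122), and it kept its call in all 10 fits that left out 1 library. It rested on 96 counts over this Western-diet group and 54 over this control-diet group. Oas1a (1.22, adjusted p = 0.0198) and Oasl2 (0.95, adjusted p = 0.0249) were also higher, and Igtp (-1.09, adjusted p = 0.02) and Irf9 (-0.57, adjusted p = 0.0431) were lower. Irf9 overlaps Rnf31 on the same strand. Leaving out any of control-diet NaKtide libraries 1, 3, 4 and 5 or Western-diet NaKtide libraries 2, 4 and 5 left 2 or 3 members called.

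For NaKtide in liver no member was called on either diet or in the interaction by edgeR's quasi-likelihood test, against 4.79% of all tested genes on Western diet, 1.55% on control diet and 5% for the interaction. Unadjusted p was below 0.05 for 2 members on Western diet, 5 on control diet and 1 in the interaction, beside 24.7%, 18.9% and 28.1% of all genes, and DESeq2 called 1 on Western diet and 0 in the other 2. On Western diet Ifi44 had 3.43, 2.34, 3.22, 2.08 and 5.84 CPM with NaKtide, against 2.04, 1.65, 1.26, 0.677 and 1.16 CPM without. All 5 libraries with NaKtide lay above those without, and the adjusted p was 0.0663 (log2 fold change 1.29, SE 0.41). Irf7 had 55.2, 55.3, 59.9, 60.6 and 56.3 CPM with NaKtide, against 61.5, 30.8, 22.7, 45.7 and 33.4 CPM without (log2 fold change 0.56, SE 0.25, adjusted p = 0.167). Library 1 of Western diet was the highest of both groups, and the other 4 lay below all libraries with NaKtide. Without that library 5 members were called higher with NaKtide and 2 in the interaction, and without library 1 of both Western-diet groups 6 were called higher with NaKtide: Irf7 (0.82), Ifit1 (1.40), Oas2 (1.10), Isg15 (1.14), Ifi44 (1.48) and Xaf1 (1.10). The fit without both libraries was chosen after seeing the data and called 3577 of 13061 genes in either direction, a larger share than that of the members. Counts over all genes without Western-diet library 1 alone are not given here. On control diet the smallest p belonged to Bst2 (-0.62, adjusted p = 0.115) and Mx2 (-0.78, adjusted p = 0.204), and in the interaction to Bst2 (0.67, adjusted p = 0.126) and Zbp1 (1.01, adjusted p = 0.255). Zbp1 in liver averaged 7.96 ± 1.81 CPM on Western diet with NaKtide, 5.04 ± 2.93 CPM on Western diet, 6.79 ± 1.57 CPM on control diet with NaKtide and 8.47 ± 5.99 CPM on control diet. Macrophage markers summed to 437 to 578 CPM in livers on Western diet with NaKtide and 190 to 398 CPM on Western diet, and their part in these values was not tested.

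Of the other pathway genes 98 were tested in liver, and with NaKtide in both groups 24 were higher on Western diet and 6 were lower, against 12.9% and 11.7% of all genes, led by Irf8 (log2 fold change 1.52, SE 0.24, adjusted p = 0.000334). In the same livers macrophage markers summed to 437 to 578 CPM on Western diet and 138 to 313 CPM on control diet. The mean of all 10 macrophage markers was higher on Western diet. The 5 markers of plasmacytoid dendritic cells, which make type I interferon, summed to 100.4 to 232 CPM and 9.43 to 21.2 CPM respectively. Most of this difference was Ly6d, which averaged 137 CPM on Western diet and 4.15 CPM on control diet. Tcf4 averaged 13.95 and 7.71 CPM in the same order. Siglech, Ccr9 and Klk1 averaged at most 0.409 CPM in either group. This sum alone therefore does not show more plasmacytoid dendritic cells. The part of these cells and of macrophages was not tested. Without NaKtide 4 of the 98 were higher, near the 4.75% of all genes, including Ifi207, an interferon-induced DNA-binding protein (1.84, adjusted p = 0.0249), and 1 was lower against 3.69% of all genes, Ifitm2 (-0.94, adjusted p = 0.00913). NaKtide on Western diet was called higher for 5 and lower for none, near the 4.79% of all genes called in either direction, and the smallest p was that of Irf8 (log2 fold change 1.38, SE 0.24, adjusted p = 0.00301).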

How the data were processed

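RNA from liver, visceral fat and subcutaneous fat was read as stranded mRNA libraries in pairs of 50 bases. The authors deposited raw counts per gene and FPKM for 60 libraries. Trimmomatic 0.38, HISAT2 2.1.0, DESeq2 1.20.0 and GRCm38 are named per the submitters' processing notes, while the counter, its strand setting and its annotation appear in none of the sources used here. FPKM over count was constant per gene and depth on 8100 genes, to a relative tolerance of 1e-06. Gene coordinates come from GENCODE M21 (GRCm38).

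The deposited counts were fitted per tissue, and once over the 40 fat libraries, with edgeR 4.0.16 in R 4.3.3 (TMM scaling, filterByExpr, 1 coefficient per group, quasi-likelihood F test, Benjamini-Hochberg adjustment over all genes, threshold 0.05). CPM are TMM-scaled within a fit, and the code was tested on simulated data. Alternatives were scaling by RLE, DESeq2 1.42.0, a fit of all genes whatever their counts, the replicate number as a block, the compared groups alone and each library left out in turn, and 5 fits chosen after seeing the data left out libraries that stood apart. The 33 members and all lists were chosen with earlier results of these data known. Named were all called members or, where none was called, the 2 with the smallest p, a fixed set of members, and other pathway genes among the 3 called with the smallest p in each direction. Other members are named with values where their group is described, and some genes of the lists are not reported here.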

Additional observations from a re-analysis of the deposited data

Results flagged for a closer look

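In a search over 408 groups of 5 values, which are the 33 members and their sum in the 12 groups, 39 had a highest or lowest library far from the other 4, and chance gives about 1 in 20. In subcutaneous fat, control-diet library 2 was far above its group for the transcription factors Irf7 (124 CPM) and Irf9 (44.9 CPM), and for Ifit1 (20.6 CPM), Ifit3 (103 CPM), Isg15 (50.3 CPM), Bst2 (179 CPM), Rtp4 (61.8 CPM), Mx2 (4.55 CPM), Ifi44 (11.8 CPM) and Xaf1 (41.7 CPM). The same library was far above its group for the oligoadenylate synthetase family, with Oas1a at 48.4 CPM, Oas2 at 27.6 CPM, Oas3 at 14.2 CPM, Oasl1 at 13.1 CPM and Oasl2 at 65.0 CPM, and for the sum of the 33 members (1455 CPM). Control-diet library 2 with NaKtide was far above its group for Irf7 (87.9 CPM), Isg15 (32.1 CPM), Oasl2 (25.0 CPM), Oas1a (25.7 CPM), Oas3 (8.99 CPM) and Ifi44 (7.06 CPM). Its TMM factor, 0.448, was the lowest of the 20 subcutaneous libraries and raised all its CPM. Parp14 reached 62.0 CPM in subcutaneous library 2 of Western diet with NaKtide. In liver, Western-diet library 1 was far above its group for Stat2 (91.3 CPM), Ifit3 (35.0 CPM), Mx1 (3.91 CPM), Oasl2 (10.9 CPM), Igtp (32.3 CPM) and Xaf1 (16.8 CPM). Other liver values apart from their group were Irgm1 at 58.5 CPM in Western-diet library 4, Dhx58 at 11.3 CPM, the lowest, in library 3 of Western diet with NaKtide, and Parp14 at 19.1 CPM in library 2 of control diet with NaKtide. In visceral fat the widest gap was that of Dhx58, at 48.5 CPM in control-diet library 5 beside 4.07 to 7.62 CPM in the other 4. Also apart there were Stat2 (50.4 CPM, library 5 of Western diet with NaKtide), Iigp1 (27.4 CPM, library 4 of Western diet with NaKtide), Ddx58 (26.9 CPM, library 1 of Western diet with NaKtide), Bst2 (98.5 CPM) and, as the lowest, Gbp7 (6.13 CPM) in library 2 of Western diet, and Iigp1 (28.5 CPM, library 3 of control diet with NaKtide).

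The difference between Western and control diet was itself different with and without NaKtide in visceral fat for 10 members, by edgeR's test of the interaction. On the log2 scale it was -4.98 for Zbp1, -4.20 for Oas3, -3.41 for Mx1, -2.72 for Oas1a and for Oasl1, -2.67 for Gbp2, -2.54 for Ifit1, -1.92 for Parp14, -1.33 for Oasl2 and -0.86 for Ddx58.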

How the results depend on the processing

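All counts here are members called at an adjusted p below 0.05, by edgeR's quasi-likelihood test unless another tool is named. No member called in the main fits changed its direction under any alternative run, and RLE scaling moved no count. With the replicate number as a block, 1 member was called for Western against control diet in liver (3 without the block), and no other count of members moved by over 1.5 times, for example 11 and 10 for diet and interaction in visceral fat; same-numbered libraries of no compared pair of groups all deviated together, so the numbers were not read as pairs. DESeq2 called 1 for NaKtide on Western diet in liver, 1 for each diet comparison in subcutaneous fat and 5 for NaKtide on control diet in visceral fat. The compared groups alone gave 0 for the liver diet comparison, 1 and 2 for diet and for NaKtide on Western diet in subcutaneous fat and 0 for the depots. Without a low-count filter visceral fat gave 0 for diet with NaKtide, 2 for NaKtide on Western diet and 1 for NaKtide on control diet.

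Of the fits chosen after seeing the data, that without muscle-containing livers gave 0 for the liver diet comparison. That without Western-diet livers 1 gave 8 for diet with NaKtide, 6 for NaKtide on Western diet and 2 for the interaction. It called 4802 of 13061 genes for diet with NaKtide and 3577 for NaKtide on Western diet, larger shares than those of the members. That without subcutaneous libraries 2 gave 7 for diet and 5 for the depots, that without the 3 libraries on the other side of the mesothelial limit 1 for diet in subcutaneous fat, and that without male tract libraries 6, 3 and 0 for diet, for diet with NaKtide and for the depots. Leaving out 1 library gave 1 to 3 for diet in liver (main count 3), 2 to 7 for diet with NaKtide (5), 0 to 5 for NaKtide on Western diet (0), 0 to 2 for the interaction (0) and 0 for NaKtide on control diet. Subcutaneous fat gave 0 to 1 for each diet comparison, the 1 without control-diet library 2 or NaKtide control-diet library 3, and 0 elsewhere. Visceral fat gave 7 to 14 for diet (12), 0 to 1 for diet with NaKtide (1), 3 to 11 for NaKtide on Western diet (9), 1 to 3 for NaKtide on control diet (2) and 7 to 13 for the interaction (10), and the depots gave 4 to 23 (16).

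Members named though not called did change direction. For the diet in visceral fat, Dhx58 (-0.25) was 0.0096 with no low-count filter, 0.13 with the replicate block, 0.72 without male tract libraries and -0.48 to 1.04 with 1 library left out. Irf9 (0.02) was -0.028 with RLE scaling, -0.024 by DESeq2, -0.017 with the groups alone and -0.039 to 0.25 with 1 library left out. Irf7 (0.06) was -0.0012 without male tract libraries and -0.056 to 0.21 with 1 left out, and Ifi35 (0.08) was -0.18 to 0.23. For NaKtide on Western diet in visceral fat, Rsad2 (0.00) was -0.16 with the block, -0.27 without libraries on the other side of the mesothelial limit and -0.27 to 0.24 with 1 left out. For the diet in subcutaneous fat, Isg15 (-0.05) was 0.018 with no low-count filter, 0.34 with the block, 0.92 without libraries 2 and -0.25 to 0.90 with 1 left out, and Irf7 (-0.41) was 0.20 without libraries 2 and -0.57 to 0.19.

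Low counts kept Mx1 and Oas3 out of the liver tests and all 12 interferon ligands out of every test. Counts over all genes moved too. The visceral diet comparison called 4287 genes, against 1936 with no low-count filter, 2671 with the replicate block, 2114 with the groups alone and 2466 without male tract libraries. Visceral NaKtide on Western diet called 2270, against 4602 by DESeq2 and 3536 without male tract libraries. Liver NaKtide on Western diet called 622, against 321 with the groups alone, 1068 by DESeq2 and 3577 without Western-diet livers 1, and the subcutaneous diet comparison 854, against 1727 by DESeq2, 2104 with the groups alone and 1907 without libraries 2. The depots called 4842, against 310 with the groups alone.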

Other observations

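In the mean sums of several marker lists, visceral fat on Western diet and on control diet with NaKtide differed from control diet in the same direction. Hepatocyte markers averaged 2899 CPM on Western diet with NaKtide and 340.5 CPM on Western diet, and 314 CPM on control diet with NaKtide and 2441 CPM on control diet, where library 5 had 69.5 CPM. Most of each mean was Cyp2e1, at 2439, 255, 169 and 1625 CPM in the same order. Alb averaged 246, 49.1, 77.9 and 442 CPM. Neutrophil markers averaged 4.48 CPM on Western diet with NaKtide and 15.0 CPM on Western diet, and 34.6 CPM on control diet with NaKtide and 3.37 CPM on control diet. Much of this was S100a8, which averaged 1.18, 8.45, 29.2 and 0.924 CPM in the same order. Csf3r averaged 1.43, 5.87, 4.80 and 1.34 CPM. S100a9 did not follow, at 1.66, 0.580, 0.350 and 0.456 CPM. Ly6g was at 0 CPM in each group, and Mpo and Retnlg were at most 0.583 CPM. Conventional dendritic cell markers averaged 24.1 CPM on Western diet with NaKtide and 113 CPM on Western diet, and 87.0 CPM on control diet with NaKtide and 24.1 CPM on control diet. Itgax made most of this difference, with 3.95, 82.9, 64.8 and 5.53 CPM in the same order. Zbtb46 did not follow, at 12.8, 13.3, 9.18 and 13.6 CPM. Xcr1, Clec9a, Flt3 and Cd209a were higher in both middle groups, at no more than 7.94 CPM. Visceral libraries of Western diet and of control diet with NaKtide that carry the same number also deviated together from their group means, with correlations of 0.32 to 0.78 across genes in 5 of 5 pairs. The labels give no batch or mouse that these numbers would mark.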
